A study of Mus musculus with 9 samples.

Results

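The genes described here encode the proteins of the cytosolic ribosome. They were chosen by symbol, as names of the *Rpl* and *Rps* pattern together with *Rpsa*, *Rplp0*, *Rplp1* and *Rplp2*, without pseudogene suffixes, and with at least 100 counts in every culture. Of 55228 genes in the count table, 89 had such a symbol and 82 of these reached the limit. The limit is itself a measured level, so the presence of these genes at high counts is not a result. All 82 passed the expression filter that precedes the tests. By name, 48 belong to the large subunit and 34 to the small subunit. The label did not hold for 2 of the 82, *Rps3a2* and *Rps3a3*, which the annotation calls processed pseudogenes.

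The cells were HC11, a line of mouse mammary epithelial cells, sequenced undifferentiated in 9 cultures. There were 3 cultures of the parental line (*WT*), 3 of the line labelled Vangl2 knockout 1 and 3 of the line labelled Vangl2 knockout 2. The last 2 lines are called *KD1* and *KD2* in the study, and they were made by nucleofection of parental cells with Cas9, 1 guide against *Vangl2* each and a repair template carrying stop codons. The medium was RPMI with serum (10% FBS), EGF at 10 ng/mL and insulin at 5 µg/mL for every culture, and the cells were harvested at 90% confluence. Each edited line is a single line grown out from isolated cells, so the 3 cultures of a line repeat that line and not the editing. The labels number the cultures of a line without saying how they were kept apart, so that p-values measure only the spread between these samples, which may be technical.

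A ribosome carries a single copy of nearly every ribosomal protein, and cells make the proteins in matched amounts. Their messengers are short and abundant, and most begin with a C followed by a run of pyrimidines, the terminal oligopyrimidine (TOP) tract, through which growth signalling by mTORC1 and the RNA-binding protein LARP1 sets their translation. In the mammary gland, ribosome production is raised when epithelial cells grow and when they make milk.

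The start sites of 60 of the 82 genes were found in the RefSeq promoter table (GRCm38.p6). A start was counted as TOP-like when its first base was C and at least 4 bases of C or T followed, on the strand of the gene. Of these 60 genes, 13 (21.7%) had such a start, beside 3.01% of the 27025 genes in the table. Shown first are 5 such starts, from genes described below for a fall in *KD2* (*Rpl15*), a difference between the edited lines (*Rpl35*), their place in the stalk (*Rplp2*), their low level (*Rps10*) or their paralog (*Rps27*). The last 2 were not counted as TOP-like and belong to the genes with the largest falls in *KD2*. In *Rpl22l1* a run of pyrimidines directly follows the annotated first base, which is a G. Each line runs from 10 bases before the annotated start to 20 bases from it, 5′ to 3′, and capitals mark the tract.
Rpl15 (chr14:18270967-18270996, minus strand): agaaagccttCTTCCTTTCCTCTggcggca
Rpl35 (chr2:39005112-39005141, minus strand): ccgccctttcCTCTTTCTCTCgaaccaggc
Rplp2 (chr7:141447641-141447670, plus strand): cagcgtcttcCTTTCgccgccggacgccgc
Rps10 (chr17:27635225-27635254, minus strand): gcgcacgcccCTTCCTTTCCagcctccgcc
Rps27 (chr3:90213629-90213658, minus strand): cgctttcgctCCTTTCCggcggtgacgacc
Rpl22l1 (chr3:28805498-28805527, plus strand): gcgcaagcccgttctcttcccacggctgca
Rps4x (chrX:102189372-102189401, minus strand): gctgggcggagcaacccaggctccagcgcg
A start displaced by a base in the annotation would not be counted, so the share is a count of annotated letters and says nothing about the messengers that were not counted.

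Depth ranged from 19231428 to 28360592 counts per culture. Cultures of the same line differed by more than sampling noise in every pair (chi-square per degree of freedom 1.41 to 24.5), which does not tell separate cultures from separate libraries of 1 culture. *Vangl2*, the targeted gene, had 66, 99 and 86 counts in *WT*, 75, 48 and 69 in *KD1* and 90, 118 and 90 in *KD2*. By edgeR's quasi-likelihood test it fell by 0.63 on the log2 scale in *KD1* (Benjamini-Hochberg adjusted p = 0.0058) and was at 0.05 in *KD2* (adjusted p = 0.81). The *Vangl2* messenger therefore did not mark the line labelled Vangl2 knockout 2, and every direction given for *KD2* is that of the line so labelled. Immunoblots in the study, which read protein and not messenger, showed almost no VANGL2 in *KD1* and strongly reduced VANGL2 in *KD2*. Among 8 epithelial markers, *Krt19* stayed at or under 3 counts in every culture. The summed level of the 8 was 5427 to 6043 CPM (counts scaled to a library total of 1000000) in *WT*, 6572 to 6742 in *KD1* and 3310 to 4159 in *KD2*. Fibroblast markers (6 genes) summed to 16.4 to 22.1 CPM in *WT*, 7.98 to 9.96 in *KD1* and 25.8 to 27.3 in *KD2*. Leukocyte markers (5 genes) summed to 3.02 to 5.99 CPM in *WT*, 6.93 to 8.37 in *KD1* and 4.81 to 6.09 in *KD2*, with *Ptprc*, *Cd3e* and *Cd79a* at or under 3 counts in every culture. Endothelial markers (3 genes) summed to 2.00 to 2.49 CPM in *WT*, 4.87 to 5.46 in *KD1* and 1.33 to 1.82 in *KD2*, with *Kdr* at or under 3 counts in every culture. All 3 adipocyte markers were at or under 3 counts in every culture, as was *Lum* of the fibroblast list. The part of these markers in the results was not tested.

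*KD2* replicate 3 stood apart from the other cultures of its line in the ribosomal protein genes. Here the deviation of a culture is its log2 CPM minus the mean of its line. The median deviation over the 82 genes was 0.26 in *KD2* replicate 3, where 82 of 82 lay above the line mean, against -0.09 and -0.16 in *KD2* replicates 1 and 2. In *WT* it was 0.06, -0.10 and 0.04, with all 82 genes below the line mean in replicate 2. In *KD1* it stayed between -0.03 and 0.02. Over all genes tested the median was between -0.0095 and 0.0103, but the scaling and the centring on line means hold it near zero. The SD of the deviations over all genes tested was 0.184 in *KD2* replicate 3. It was 0.0932 to 0.165 in the other cultures, so the spread in that culture was not confined to the ribosomal protein genes.

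In *KD2*, transcript length and GC content moved with these deviations. In *KD2* replicate 3 the median deviation over genes ran from -0.19 in the fifth of genes with the lowest GC content to 0.17 in the fifth with the highest. By the longest coding transcript, with the ribosomal protein genes left out, it was 0.16 for 508 genes of 601 to 1000 bases and -0.10 for 2672 genes over 5000 bases. Nuclear respiratory chain genes had a median of 0.21, and mitochondrial ribosomal protein genes 0.11. After lowess curves on coding transcript length and GC content were subtracted, the median over the 80 ribosomal protein genes with a coding length was 0.07 in *KD2* replicate 3. In *WT* replicate 2 it stayed at -0.09, and in *WT* replicate 1 it was 0.10, so the correction did not bring the *WT* cultures together. Before correction, the fifth of genes with the highest GC content was at -0.05, 0.03 and 0.02 in *WT* replicates 1 to 3. The sign was opposite to that of the ribosomal protein genes in replicates 1 and 2, and the same in replicate 3. The correction on the summed length of all exons, which is longer than the main messenger for many of these genes, left 0.16 in *KD2* replicate 3.

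**Figure D1:**
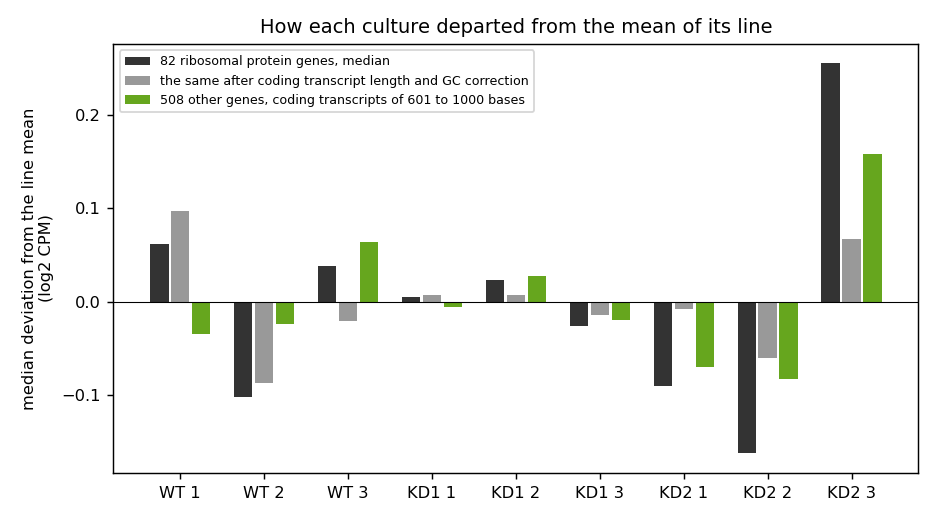
Median deviation (log2 CPM) of each culture from the mean of its line, for the 82 ribosomal protein genes as measured (black), for the 80 with a coding length after correction for coding transcript length and GC content (grey), and for 508 other genes with coding transcripts of 601 to 1000 bases (green). KD2 replicate 3 reaches 0.26 in the black bar, 0.16 in the green bar and 0.07 in the grey bar, and the 3 KD1 cultures stay within 0.03 of zero.

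Together, the 82 genes took 2.81%, 2.53% and 2.77% of all counts in the *WT* cultures. They took 2.19%, 2.19% and 2.14% in *KD1*, and 2.12%, 2.03% and 2.66% in *KD2*. The Wilson 95% interval of each share reached at most 0.00723 percentage points to either side, for counting error only. The mean was 2.70% ± 0.15 (SD, n = 3) in *WT*, 2.18% ± 0.027 in *KD1* and 2.27% ± 0.34 in *KD2*. Every *KD1* culture lay below every *WT* culture, whereas *KD2* replicate 3 lay inside the *WT* range, and *KD2* without it averaged 2.07%. The large subunit genes took 1.58% to 1.75% in *WT* and 1.35% to 1.38% in *KD1*, and the small subunit genes 0.944% to 1.06% and 0.792% to 0.816%. In bulk cultures such a share does not tell fewer molecules per cell from more RNA of other genes.

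**Figure D2:**
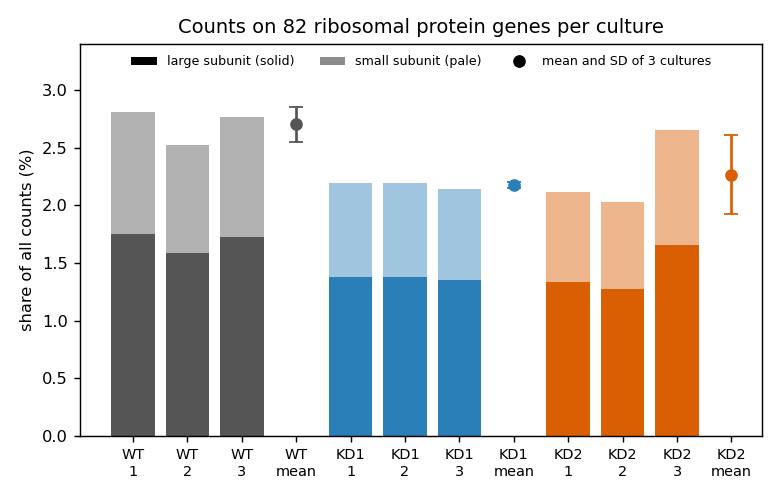
Share of all counts (percent) on the 82 genes in each of the 9 cultures, with large subunit genes solid and small subunit genes pale, and the mean with its SD (n = 3) beside each line. The KD1 bars lie between 2.14% and 2.19%, below the 2.53% to 2.81% of WT, and KD2 replicate 3 reaches 2.66%.

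The first comparison asked how the ribosomal protein genes of *KD1* differed from those of *WT*. They were lower as a group by a small amount. The median log2 fold change over the 82 genes was -0.30, beside -0.03 over the 15253 genes tested, and the quartiles were -0.36 and -0.23. A gene is said to have changed at an adjusted p under 0.05 in edgeR's quasi-likelihood test over all genes. By that limit, 61 of the 82 fell, where 30% of all genes tested fell, and 0 rose, where 26.9% of all genes rose. None of the 82 was called with a change of more than 1 on the log2 scale, where 7.49% of all genes were called lower and 9.34% higher. The median was -0.29 for the large subunit, of which 34 of 48 fell, and -0.33 for the small subunit, of which 27 of 34 fell. Every *KD1* culture lay below every *WT* culture for 75 of the 82 genes, beside 36.4% of all genes tested.

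The largest falls in *KD1* were in *Rpl13* and *Rps21*. *Rpl13*, which encodes the large subunit protein eL13, had 738, 646 and 713 CPM in *WT* and 463, 469.5 and 443 in *KD1*. The groups did not overlap, and the log2 fold change was -0.61 (SE 0.10, adjusted p = 1.5e-04), a fall of 34.4%. *Rps21*, of the small subunit, had 148, 123 and 138 CPM in *WT* and 93.0, 92.9 and 83.2 in *KD1* (log2 fold change -0.60, SE 0.15, adjusted p = 0.003). In *KD2* it was at -0.24 (adjusted p = 0.15), and at -0.48 without *KD2* replicate 3 (adjusted p = 5.3e-06). *Rpl13* lies on chromosome 8, where the median over all 832 genes tested was -0.27 in *KD1*.

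Among the next largest falls were 3 genes of the small subunit. *Rps25*, whose protein is known for its part in internal initiation, fell by 0.49 on the log2 scale (adjusted p = 4.4e-05). *Rps15* fell by 0.48 (adjusted p = 0.0026) and *Rps28* by 0.48 (adjusted p = 0.012). *Rps28* was even across *KD1*, at 51.9, 50.6 and 51.4 CPM, and lay between 62.8 and 77.5 in *WT*.

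At the other end were the genes with the smallest differences in *KD1*, none of which passed the limit. *Rpl6*, of the large subunit, had 653, 662 and 697 CPM in *WT* and 669, 690 and 674 in *KD1* (log2 fold change 0.01, SE 0.069, adjusted p = 0.87). *Rpl7l1*, a paralog of *Rpl7*, was at 0.01 (adjusted p = 0.88), *Rpl27* at -0.03 (adjusted p = 0.84), *Rps10* at -0.10 (adjusted p = 0.56), *Rpl13a* at -0.11 (adjusted p = 0.19) and *Rpl26* at -0.11 (adjusted p = 0.35). The sign of the values near zero turned under other settings of the fit for *Rpl6*, *Rpl7l1*, *Rpl26*, *Rpl27* and *Rps10*. The count of 61 became smaller when a *WT* or *KD1* culture was left out. It was 40, 59 and 34 without *WT* replicates 1, 2 and 3, and 48, 50 and 42 without *KD1* replicates 1, 2 and 3. The median stayed between -0.32 and -0.25, and the shares of all genes in these fits are not given here. The 49 ribosomal protein genes not selected by the rule for naming had mean levels of 39.4 to 863 CPM in *WT*. Their values in *KD1* lay between -0.45 and -0.17, and 38 of the 49 fell.

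The second comparison set *KD2* against the same *WT* cultures, so the first 2 comparisons are not independent. The ribosomal protein genes were again lower by a median of -0.32, beside 0.01 over all genes tested, and 57 of the 82 fell, where 33.3% of all genes fell. None rose, where 34% of all genes rose. Of the 49 genes not selected for naming, 36 fell, and their values lay between -0.75 and -0.02. The spread among the 82 genes was wider, from -1.64 to 0.14. The median was -0.36 for the large subunit, with 34 of 48 lower, and -0.31 for the small subunit, with 23 of 34 lower. The cultures of *KD2* lay wholly below those of *WT* for 39 genes, beside 33.4% of all genes tested. Without *KD2* replicate 3, the median was -0.44 (all genes 0.04) and 77 of the 82 fell, where 34% of all genes fell. Then 1 gene rose, *Rpl7l1* (log2 fold change 0.12, adjusted p = 0.025), where 37.2% of all genes rose.

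With the fit corrected for coding transcript length and GC content, an alternative chosen after seeing the data, 64 of 80 genes fell in *KD1* (36.2% of the 12506 genes with a coding length) and 67 of 80 in *KD2* (39.1%). The medians were then -0.21 in *KD1* and -0.28 in *KD2*. In the fits with such a correction, the curves were drawn on deviations from the mean of all cultures, not of each line. Differences between lines that follow length or GC content were thereby removed as well, so smaller falls there are not a measure of replicate spread alone. *Rpl27* rose in *KD1* in that fit (log2 fold change 0.09), where 35.1% of genes rose, whereas with exon length in place of coding length 0 of 82 rose (31.3% of genes) and 70 fell (32.8%). The falls in *KD1* of 11 of the genes named here became smaller by over 1.5 times with the coding length and stayed past the limit. They were -0.40 for *Rps21*, -0.29 for *Rps28*, -0.24 for *Rpl35*, -0.22 for *Rps15* (-0.28 with exon length), -0.20 for *Rps27* and *Rpl22l1*, -0.19 for *Rps27l*, -0.16 for *Rpl36a* and *Rpl37a*, -0.13 for *Rps3a1* and -0.12 for *Rpl39*. In *KD2*, *Rps21* (-0.21), *Rpl27* (-0.19) and *Rplp1* (-0.14) fell with the coding length. *Rpl7l1* (0.10), *Rpl37a* (0.18) and *Rps29* (0.17) rose, where 40.3% of genes did, and with exon length 0 of 82 rose and 72 fell, where 36.3% of genes did each.

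**Figure D3:**
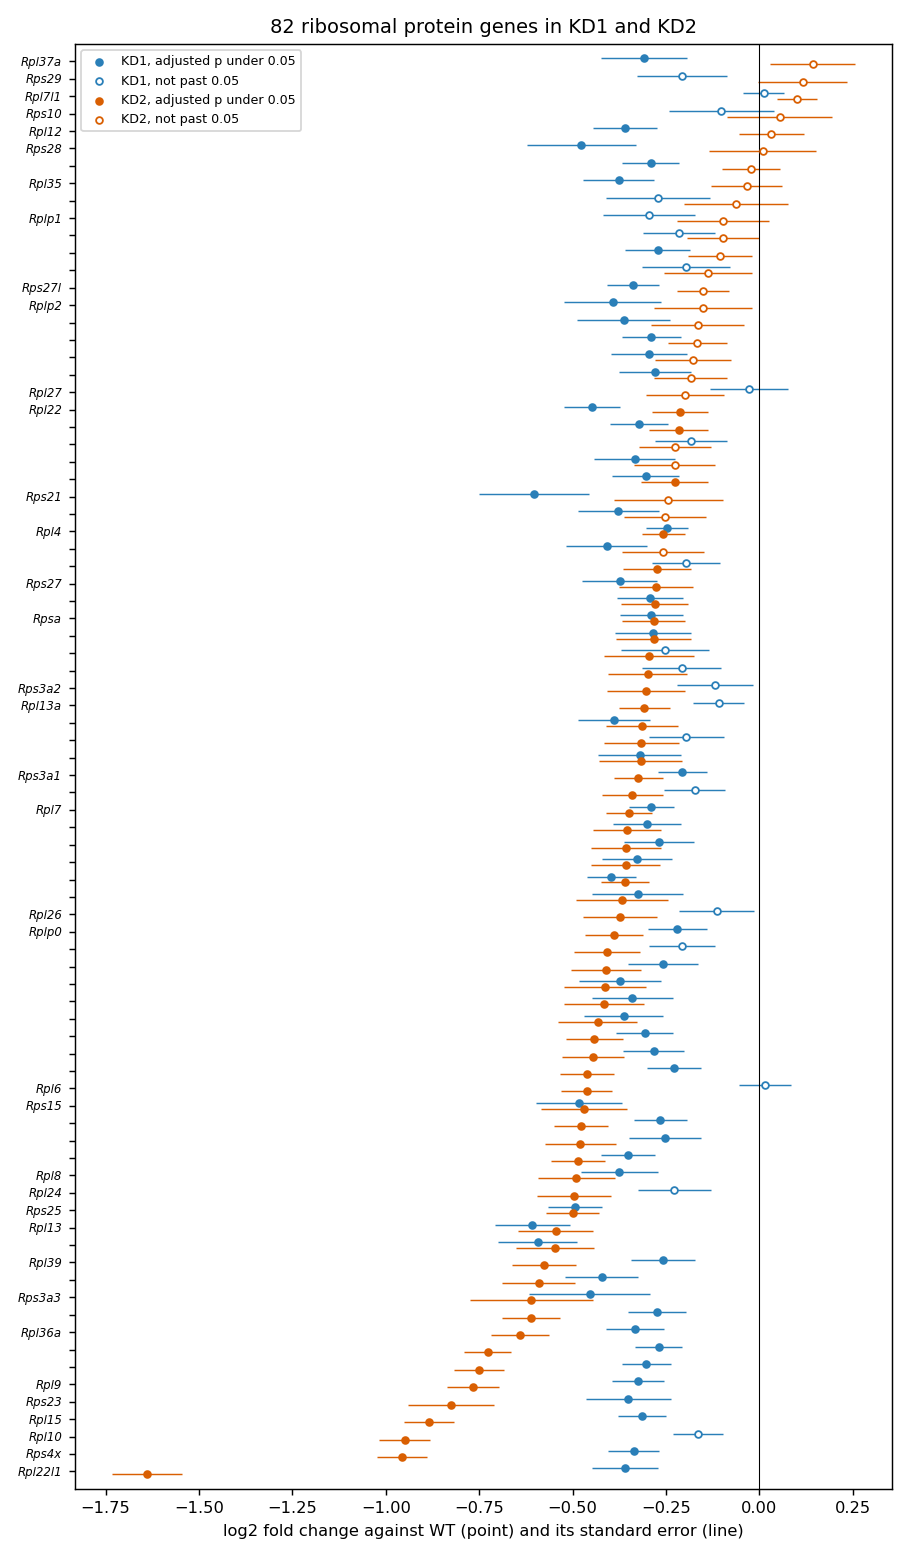
Log2 fold change against WT (points) and its standard error (lines) of the 82 genes in KD1 (blue) and KD2 (orange), ordered by the value in KD2, with filled points for an adjusted p under 0.05. Genes named in the text are labelled. The KD1 points lie between -0.61 and 0.01, and the KD2 points spread from -1.64 for Rpl22l1 to 0.14 for Rpl37a. Both comparisons use the same WT cultures.

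*Rpl22l1* was the single ribosomal protein gene called lower by more than 1 on the log2 scale in *KD2*, where 6.71% of all genes were. It lies on chromosome 3 (GRCm38, 28805436 to 28807424, plus strand) and encodes a paralog of RPL22 that can take the place of that large subunit protein. It had 70.0, 55.7 and 63.7 CPM in *WT*, 48.7, 54.0 and 44.7 in *KD1*, and 18.98, 20.7 and 21.03 in *KD2*. The 3 lines did not overlap, and *KD2* replicate 3 did not stand apart for this gene. The log2 fold change was -1.64 in *KD2* (SE 0.094, adjusted p = 3.9e-09), a fall of 67.9%, and -0.36 in *KD1* (SE 0.088, adjusted p = 0.0032). Against *KD1*, *KD2* was lower by 1.28 on the log2 scale (adjusted p = 3.1e-08). The median over 794 genes tested on chromosome 3 was -0.02 in *KD2*.

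*Rpl22* itself, on chromosome 4, had 291, 258 and 279 CPM in *WT*, 199.5, 208 and 200.2 in *KD1* and 224.5, 222 and 268.5 in *KD2*. It fell by 0.45 in *KD1* (adjusted p = 1.6e-04) and by 0.21 in *KD2* (adjusted p = 0.022), and *KD2* was higher than *KD1* by 0.23 (adjusted p = 0.013), the opposite order to that of *Rpl22l1*. The coding sequences of both share 75.9% of 348 aligned bases. The stretches below, both coding, show how far reads of the pair can be told apart: bases 178 to 237 of the *Rpl22* coding sequence and bases 160 to 219 of that of *Rpl22l1*, with the 21 differing bases in capitals (GENCODE M21).
Rpl22: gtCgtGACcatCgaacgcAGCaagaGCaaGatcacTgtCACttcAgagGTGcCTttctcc
Rpl22l1: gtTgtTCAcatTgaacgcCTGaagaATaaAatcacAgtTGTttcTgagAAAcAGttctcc
Of the windows of 50 bases in the *Rpl22l1* transcript, 65.6% also occur in other annotated genes, led by the pseudogene *Gm15421*, which held 4 to 15 counts in each culture. An annotated gene on the opposite strand, *Gm33051*, had 1 count in 1 culture and 0 in the others.

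The next falls in *KD2* were in *Rps4x* and *Rpl10*, both on the X chromosome. *Rps4x*, whose small subunit protein has a second gene on the Y chromosome in primates, had 690, 609 and 661 CPM in *WT*, 517, 533 and 503 in *KD1* and 326, 316 and 369 in *KD2*. The log2 fold change was -0.96 in *KD2* (SE 0.068, adjusted p = 3.1e-08) and -0.34 in *KD1* (adjusted p = 7.1e-04). *Rpl10*, whose protein joins the large subunit late in its assembly, had 454, 421 and 440 CPM in *WT*, 400, 393 and 380 in *KD1* and 224, 207 and 250 in *KD2*. It fell by 0.95 in *KD2* (SE 0.068, adjusted p = 3.4e-08), and its value in *KD1* was -0.16 (adjusted p = 0.051). The other X-linked genes were *Rpl36a*, at -0.64 in *KD2* and -0.33 in *KD1*, and *Rpl39*, at -0.58 and -0.26, all of them past the limit. The median over the 449 genes tested on the X chromosome was -0.63 in *KD2* and -0.09 in *KD1*.

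*Rpl15*, *Rps23* and *Rpl9* followed. *Rpl15*, of the large subunit, had 289, 259 and 273 CPM in *WT* and 144, 140 and 161 in *KD2* (log2 fold change -0.88, SE 0.066, adjusted p = 5.0e-08). *Rps23*, whose protein lies at the decoding centre of the small subunit, had 225.5, 195 and 213 CPM in *WT* and 104, 104 and 150 in *KD2* (log2 fold change -0.83, SE 0.12, adjusted p = 2.2e-05). *Rpl9* fell by 0.77 (SE 0.07, adjusted p = 3.5e-07). None of the 3 genes overlapped between *WT* and *KD2*, and all were lower still without *KD2* replicate 3, at -0.92, -0.99 and -0.82.

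At the other end of the order in *KD2*, no gene passed the limit. *Rpl37a* had 166, 165 and 176 CPM in *WT* and 163, 161 and 237 in *KD2* (log2 fold change 0.14, adjusted p = 0.28). *Rps29*, at 0.12, *Rps10*, at 0.05, *Rpl12*, at 0.03, and *Rps28*, at 0.01, had the same shape, with *KD2* replicate 3 the highest of the 9 cultures. Without it these values were -0.04 for *Rpl37a*, -0.05 for *Rps29*, -0.14 for *Rps10*, -0.07 for *Rpl12* and -0.21 for *Rps28*, of which *Rps28* alone passed the limit (adjusted p = 0.0097). *Rpl7l1*, at 0.10 (adjusted p = 0.12), differed from these, with 206, 197 and 204 CPM in *KD2* beside 186, 182 and 199 in *WT*.

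**Figure D4:**
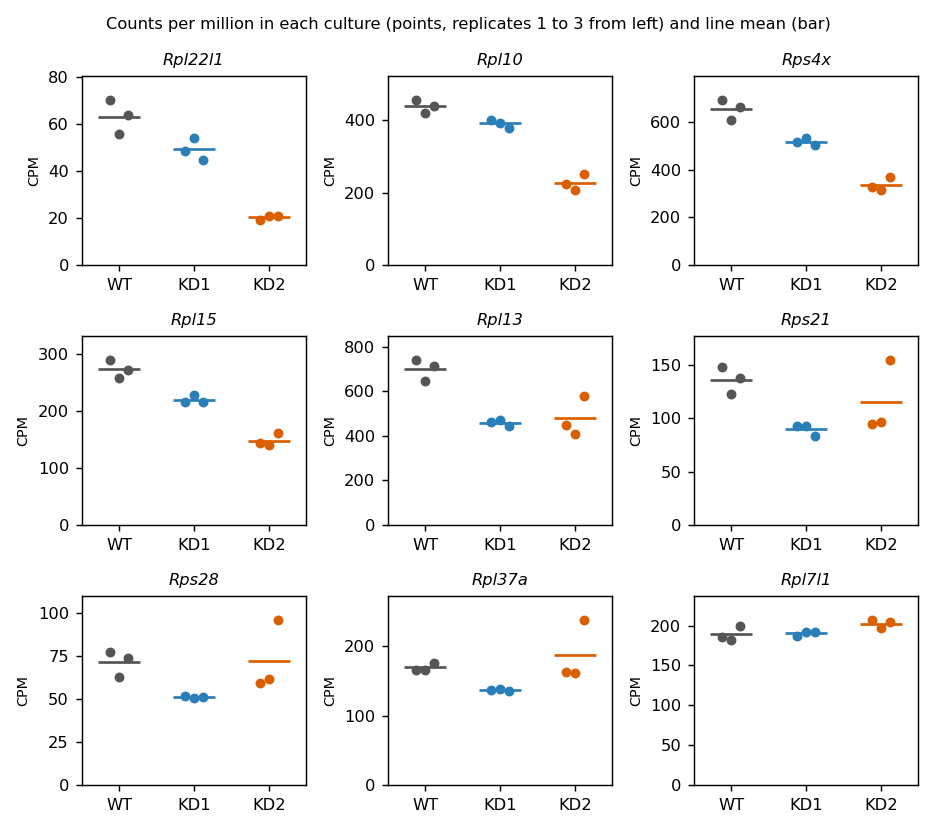
CPM of 9 genes in each culture (points, replicates 1 to 3 from left) and the mean of each line (bars), every axis from 0. Rpl22l1, Rpl10, Rps4x and Rpl15 are lowest in all KD2 cultures, whereas for Rps21, Rps28 and Rpl37a KD2 replicate 3 lies above every other culture.

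The acidic proteins of the stalk, which recruits elongation factors to the large subunit, were in the same range as the rest. *Rplp0* fell by 0.22 in *KD1* (adjusted p = 0.028) and by 0.39 in *KD2* (adjusted p = 5.8e-04). *Rplp1* was at -0.30 in *KD1* (adjusted p = 0.054) and -0.10 in *KD2* (adjusted p = 0.5), and *Rplp2* at -0.39 (adjusted p = 0.02) and -0.15 (adjusted p = 0.32). *KD2* replicate 3 held 497 CPM of *Rplp1* beside 349 and 320 in the other *KD2* cultures, and without it *Rplp1* fell by 0.28 (adjusted p = 1.9e-04) and *Rplp2* by 0.37 (adjusted p = 5.0e-06). *Rpsa*, which encodes a small subunit protein also known as the laminin receptor, fell by 0.29 in *KD1* (adjusted p = 0.0094) and by 0.28 in *KD2* (adjusted p = 0.0089).

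*Rps27l*, a paralog of *Rps27* known as a target of p53, fell by 0.34 in *KD1* (adjusted p = 9.3e-04), from 100.2 ± 4.7 to 79.2 ± 2.6 CPM, and was at -0.15 in *KD2* (adjusted p = 0.072). *Rps27* fell by 0.37 in *KD1* (adjusted p = 0.0054) and by 0.28 in *KD2* (adjusted p = 0.024). The coding sequences of the pair share 79.0% of 252 aligned bases.

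On the scale of RPKM, which is CPM divided by the exon length in kilobases, *Rplp1* had the highest level in *WT* (832 ± 58, SD, n = 3), ahead of *Rpl8* (674 ± 39) and *Rpl4* (632 ± 26). The median over the 82 genes was 148.9 RPKM in *WT*, 122.5 in *KD1* and 128.4 in *KD2*, and in *WT* 54 of the 82 lay within 2-fold of it. Of the 81 neighbouring pairs in the *WT* order, 10 did not overlap between cultures, so most neighbours could not be told apart. The lowest were *Rps10* (7.76 ± 0.32), *Rps3a3* (12.9 ± 1.8) and *Rps3a2* (15.3 ± 0.84), followed by *Rpl13a* (24.99 ± 1.6). With the length of the longest coding transcript in place of all exons, which the pseudogenes do not have, *Rpl8* led at 898 RPKM, *Rps10* was at 20.2 and *Rpl13a* at 50.5.

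Exons of *Rps10*, *Rpl24* and *Rpl13a* lie on the same strand as exons of other annotated genes, *RPS10-NUDT3*, *Gm28037* and *Gm45713*. The last 2 had 0 counts in every culture, and the first is not used here. How reads that fall in 2 genes were counted is not given in the sources used here, so the levels of these genes are uncertain. The pseudogenes *Rps3a2* and *Rps3a3* are identical to the coding gene *Rps3a1* at 99.5% and 98.9% of aligned bases. Shown are bases 202 to 261 of the *Rps3a1* coding sequence and of *Rps3a3*, with the 2 differing bases in capitals.
Rps3a1: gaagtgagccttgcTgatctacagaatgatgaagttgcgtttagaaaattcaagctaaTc
Rps3a3: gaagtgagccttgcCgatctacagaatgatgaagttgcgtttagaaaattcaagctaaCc
*Rps3a3* fell by 0.45 in *KD1* (adjusted p = 0.028) and by 0.61 in *KD2* (adjusted p = 0.0048), and *Rps3a1* by 0.21 (adjusted p = 0.015) and 0.32 (adjusted p = 5.6e-04). Whether reads counted on the pseudogenes came from *Rps3a1* was not tested.

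Such sharing was common among the ribosomal protein genes. For the principal transcript of each gene, a median of 55.1% of windows of 50 bases occurred in another annotated gene, and 81 of the 82 shared windows with at least 1 annotated pseudogene. The 45 genes with more than 50% of windows shared had medians of -0.29 in *KD1* and -0.32 in *KD2*, and the other 37 had -0.31 and -0.34. *Rpl12*, *Rpl15*, *Rpl35*, *Rps10*, *Rps25* and *Rps28* overlap genes on the opposite strand, and the strand setting of the counting is not given in the sources used here, so reads of both genes cannot be told apart there.

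Genes with a TOP-like start in the table, 13 in all, had a median of -0.35 in *KD1*, where 11 fell, and of -0.24 in *KD2*, where 6 fell. The 47 genes of the table without such a start had medians of -0.29 and -0.37, with 35 and 34 lower. Of all genes tested, 30% fell in *KD1* and 33.3% in *KD2*. The groups with and without such a start overlapped widely, from -0.60 to -0.10 and from -0.61 to 0.01 in *KD1*. Since *Rpl22l1*, with pyrimidines right after its annotated first base, is among the 47, the split follows annotated letters and not the tract itself.

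Just outside the limit of 100 counts, *Rpl6l* had 49, 103 and 89 counts in *WT*, 84, 77 and 87 in *KD1* and 40, 34 and 7 in *KD2*. It is annotated as a processed pseudogene. *Rpl32l* followed with 1 to 8 counts and *Rpl3l*, known from heart and skeletal muscle, with 0 to 4. Just inside it were *Rps3a3*, with a lowest count of 131, *Rps3a2*, with 215, and *Rps10*, with 360. The germ line paralogs *Rpl10l* and *Rpl39l* had 0 counts and at most 1 count.

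The third comparison asked where the ribosomal protein genes of the edited lines differed from each other. Of the 82 genes, 9 were higher in *KD2* than in *KD1* and 18 were lower, where 34.8% and 33% of all genes were. The median difference was -0.04, beside 0.02 over all genes tested. Only *Rpl22l1* of the 82 was called lower by more than 1 on the log2 scale, where 8.58% of all genes were. Scaling to library size alone, which moved the median of all genes from 0.02 to 0.14, gave 21 higher and 10 lower, where 42.2% and 26.1% of all genes were. The correction for exon length and GC content gave 9 higher and 35 lower (36.3% and 37.4% of all genes), and that for coding length gave 13 higher and 40 lower of 80 (40% and 40.6%). Without *KD2* replicate 3 there were 7 higher (36.7% of all genes) and 47 lower (35.3%), with a median of -0.18. The count of 9 became 15 without *KD2* replicate 2 and 5 without *KD1* replicate 3.

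The genes lowest in *KD2* relative to *KD1* were *Rpl22l1* (-1.28, adjusted p = 3.1e-08), *Rpl10* (-0.78, adjusted p = 1.8e-07) and *Rps4x* (-0.62, adjusted p = 1.9e-06). They were followed by *Rpl15* (-0.57, adjusted p = 3.3e-06), *Rpl6* (-0.48, adjusted p = 2.8e-05) and *Rps23* (-0.47, adjusted p = 0.0022). *Rpl6* was at 0.01 in *KD1* against *WT*, and it had 477, 441 and 543 CPM in *KD2*, below every culture of the other lines. The genes highest in *KD2* relative to *KD1* were *Rps28* (0.48, adjusted p = 0.0086), *Rpl37a* (0.45, adjusted p = 0.003), *Rpl12* (0.39, adjusted p = 0.0011), *Rps21* (0.36, adjusted p = 0.043), *Rpl35* (0.34, adjusted p = 0.0055) and *Rps29* (0.32, adjusted p = 0.027). Without *KD2* replicate 3, *Rps28* (0.24), *Rpl37a* (0.25), *Rpl12* (0.27) and *Rpl35* (0.21) stayed past the limit, and *Rps21* (0.10, adjusted p = 0.16) and *Rps29* (0.13, adjusted p = 0.063) did not. With the coding length and GC content corrected, *Rps21* was at 0.19, *Rpl35* at 0.17 and *Rps29* at 0.17, all past the limit.

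The place of a gene in this order moved with its chromosome. The median over all genes tested on a chromosome, for *KD2* against *WT*, ran from -0.66 on chromosome 13 to 0.28 on chromosome 17 over the 19 chromosomes that carry ribosomal protein genes. *Rps23* lies on chromosome 13, *Rpl15* on chromosome 14 (median -0.47), and *Rps10*, *Rps28* and *Rpl7l1* on chromosome 17. *Rpl12*, *Rpl35* and *Rps21* lie on chromosome 2, whose median in *KD2* relative to *KD1* was 0.32. Across the 82 genes, the fold change and the median of the chromosome had a Pearson correlation of 0.53 in *KD1*, 0.66 in *KD2* and 0.69 in *KD2* relative to *KD1*. These correlations are across genes of the same libraries, which are not independent replicates. The part of the chromosome in these values was not tested.

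The fall of the group was also present within chromosomes. In *KD1*, 80 of the 82 genes lay below the median of their own chromosome, and in *KD2*, 78 did, with a median distance of -0.28 and -0.33. On each of the 19 chromosomes the median of its ribosomal protein genes was below that of all its genes, in *KD1* and in *KD2*. Between the edited lines, 53 genes lay below and 28 above the median of their chromosome, at a median distance of -0.07. *Rpl22l1* lay farthest from the median of its chromosome in *KD2*, at a distance of -1.62, followed by *Rps25* at -0.65. The X-linked *Rpl36a* and *Rpl39* lay at -0.01 and 0.05 from theirs.

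**Figure D5:**
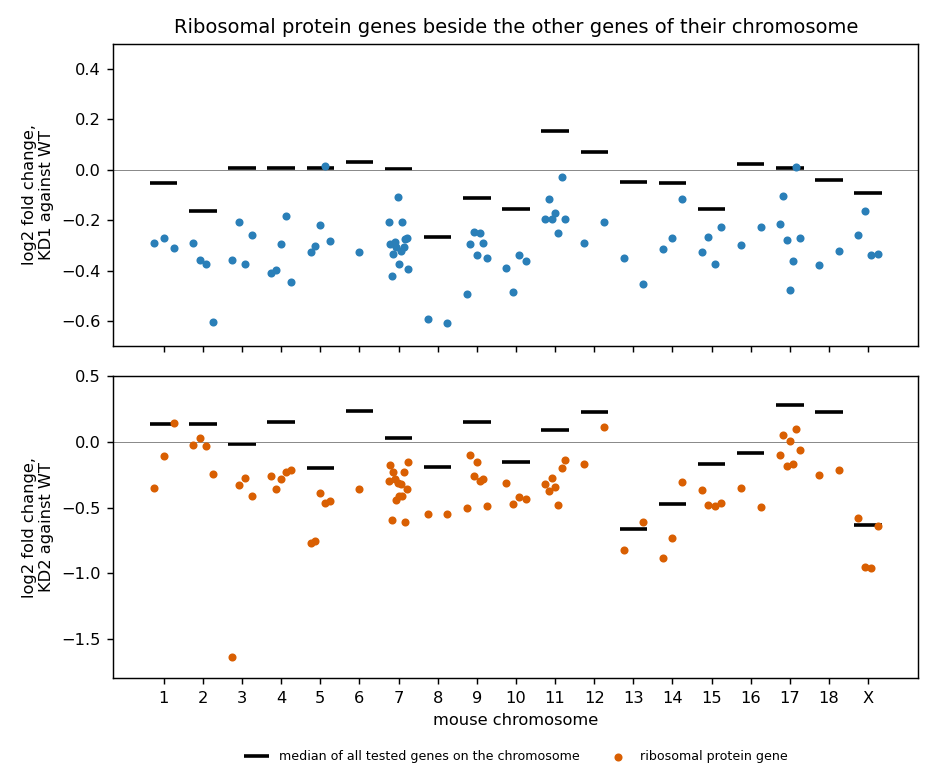
Log2 fold change of each of the 82 genes (points) by mouse chromosome, in KD1 (upper panel, blue) and KD2 (lower panel, orange) against WT, beside the median of all tested genes on that chromosome (black bars). The 2 panels have different scales. Most points lie below their bar in both panels, and the KD2 bars run from -0.66 on chromosome 13 to 0.28 on chromosome 17.

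Of 4 ribosomal genes whose names fall outside the pattern, *Fau*, which encodes a ubiquitin-like fusion with RPS30, had 307 ± 20 CPM in *WT* and 225 ± 7.8 in *KD1* (log2 fold change -0.45, adjusted p = 0.0054). It was at -0.47 in *KD2* (adjusted p = 0.0032), where replicate 3 had 282 CPM and the other cultures 195 and 188. *Rack1*, a scaffold on the small subunit, fell by 0.31 in *KD2* (adjusted p = 0.0023). *Rpl36al* rose by 0.28 in *KD1* (adjusted p = 0.022).

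The counts of the lists that follow stand beside those of all genes tested, of which 30% fell and 26.9% rose in *KD1* (median -0.03) and 33.3% fell and 34% rose in *KD2* (median 0.01). They describe each list and were not tested against other genes. Translation factors and other messengers of the TOP class (22 genes) had 9 lower and 1 higher in *KD1* (median -0.12) and 16 lower and 2 higher in *KD2* (median -0.38). *Eef2*, the translocase of elongation, fell by 0.48 in *KD1* (adjusted p = 2.5e-05), from 3190 ± 87 to 2290 ± 18 CPM, and by 0.59 in *KD2* (adjusted p = 2.6e-06). *Btf3*, part of the complex on nascent chains, fell by 1.14 in *KD2* (adjusted p = 1.4e-09), from 286 ± 16 to 129.5 ± 5.8 CPM. *Vim*, listed among TOP messengers and better known as the mesenchymal filament vimentin, went in opposite directions, from 145 ± 28 CPM in *WT* to 18.3 ± 0.54 in *KD1* and 1091 ± 99 in *KD2*.

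Among 28 genes of mTORC1, LARP1 and Myc, 17 were lower and 2 higher in *KD1*, and 16 lower and 6 higher in *KD2*. *Myc*, a transcription factor that drives ribosome production, had 218, 206.5 and 236 CPM in *WT*, 123, 127 and 122 in *KD1* and 81.8, 80.75 and 82.7 in *KD2*. The 3 lines did not overlap, with log2 fold changes of -0.83 in *KD1* (adjusted p = 3.4e-08) and -1.43 in *KD2* (adjusted p = 2.0e-10). *Sesn2*, an inhibitor of mTORC1 that senses leucine, fell by 1.51 in *KD2* (adjusted p = 3.0e-09), and *Tsc1*, another inhibitor, rose by 1.07 (adjusted p = 3.5e-09). *Larp1*, named here after its values were seen, fell by 0.79 in *KD2* (adjusted p = 4.5e-09) and was at 0.04 in *KD1* (adjusted p = 0.51). *Mycn* had 13, 24 and 32 counts in *WT*, 1, 0 and 1 in *KD1* and 38, 56 and 45 in *KD2*.

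Ribosome biogenesis factors (96 genes), which process ribosomal RNA and assemble the subunits, had 79 lower and 4 higher in *KD2*, with a median of -0.48. In *KD1*, 50 were lower and 11 higher, with a median of -0.19, and in the direct test of *KD2* against *KD1*, 66 were lower and 6 higher, where 33% and 34.8% of all genes were. *Riok1*, a kinase of late small subunit maturation, fell by 1.31 in *KD2* (adjusted p = 6.7e-10), and *Heatr1*, of the early small subunit processome, by 1.27 (adjusted p = 4.3e-09). *Nob1*, the nuclease that forms the end of 18S RNA, fell by 0.91 in *KD1* (adjusted p = 7.5e-08), from 146 ± 5.8 to 77.4 ± 1.6 CPM. Its level in *KD2* was 77.3 ± 7.6 CPM. *Wdr36* rose by 0.61 in *KD1* (adjusted p = 8.0e-07).

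Chaperones and importins of ribosomal proteins (14 genes) had 4 lower and 4 higher in *KD1*, close to the shares of all genes, and 9 lower and 3 higher in *KD2*. *Tsr2*, the escort of RPS26, fell by 0.68 in *KD1* (adjusted p = 3.8e-06) and fell by 1.45 in *KD2* (adjusted p = 2.7e-09). Sensors of stalled or faulty ribosomes (17 genes) had 4 lower and 6 higher in *KD1*, where *Mdm2* rose by 0.75 (adjusted p = 1.8e-07), and 12 lower and 2 higher in *KD2*, where *Gspt1*, a release factor, fell by 0.63 (adjusted p = 6.5e-07).

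Genes of the mitochondrial machinery were set beside the ribosomal protein genes. Of 72 nuclear respiratory chain genes, 48 were lower and 0 higher in *KD1*, with a median of -0.29, and 46 were lower and 7 higher in *KD2*, with a median of -0.32. These medians lay within 0.01 of those of the ribosomal protein genes. Of 77 mitochondrial ribosomal protein genes, 29 were lower and 8 higher in *KD1* (median -0.09), and 45 lower and 8 higher in *KD2* (median -0.26). *Mrps26* fell by 0.77 in *KD1* (adjusted p = 3.1e-05), and *Mrpl45* rose by 0.61 (adjusted p = 4.0e-06). The level of *Mrps26* was 109 ± 5.4 CPM in *WT*, 63.8 ± 0.81 in *KD1* and 61.9 ± 13 in *KD2*. *Uqcrfs1*, the iron-sulfur subunit of complex III, fell by 1.06 in *KD2* (adjusted p = 4.5e-09), and *Ndufb10* of complex I rose by 0.48 (adjusted p = 5.3e-04). Differences between these lists and the ribosomal protein genes were not tested.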

How the data were processed

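RNA was poly-A selected and sequenced in 9 cultures as paired reads of 50 cycles. The values the authors deposited are raw counts per gene. They filtered reads under an average quality of 20 with fastp, aligned to GRCm38 with HISAT2 and used featureCounts at the exons. Settings for strand and for reads that fit several genes are not given in the sources used here.

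Counts were tested with edgeR 4.0.16 in R 4.3.3 (quasi-likelihood test, TMM scaling, expression filter on the 3 groups, 1 fit of 9 cultures without a block), with Benjamini-Hochberg adjustment over 15253 genes. Standard errors follow from the F statistic and the fold change. The script was tested on simulated counts. CPM used the TMM-scaled library, and log2 CPM a prior of 0.5. Length, GC content (known for 15045 of the genes tested) and shared windows came from GENCODE M21, which is not the release named in the methods, and a coding length was known for 12506 genes. Lowess curves had a span of 0.3. DESeq2 1.42.0 was an alternative.

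Samples were grouped by their labels. The genes and lists were chosen with earlier results of these data known. The rule named 33 ribosomal protein genes: those called, the 6 highest and 6 lowest fold changes per comparison, paralogs by symbol, X-linked and stalk genes, *Rpsa*, the extremes of level per length and the genes around the limit of 100 counts. From the other lists came the 2 highest and 2 lowest changed genes per comparison. *Rpl22*, *Rps27* and *Rps3a1* were added as partners of named paralogs, and these and *Rpl24* were chosen after their values were seen. Some genes that the rule selected are not reported here.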

Additional observations from a re-analysis of the deposited data

Results flagged for a closer look

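For 18 of the ribosomal protein genes named, the effect in *KD2* differed from that in *KD1* by the test of the difference itself (edgeR quasi-likelihood test of *KD2* against *KD1*, Benjamini-Hochberg adjusted p under 0.05 over all genes). The log2 difference, *KD2* minus *KD1*, was -1.28 for *Rpl22l1*, -0.78 for *Rpl10*, -0.62 for *Rps4x*, -0.57 for *Rpl15*, -0.48 for *Rpl6*, -0.47 for *Rps23* and -0.44 for *Rpl9*. It was -0.32 for *Rpl39*, -0.31 for *Rpl36a*, -0.26 for *Rpl26* and -0.20 for *Rpl13a*. It was positive for *Rps28* (0.48), *Rpl37a* (0.45), *Rpl12* (0.39), *Rps21* (0.36), *Rpl35* (0.34), *Rps29* (0.32) and *Rps27l* (0.19). *Rpl22*, described as the partner of *Rpl22l1*, also passed (0.23, adjusted p = 0.013). The 18 are among the 33 genes taken by the rule for naming, which used the highest and lowest values of this same difference, so they are a description. Over all 82 genes, 9 were higher and 18 lower, beside 34.8% and 33% of all genes tested.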

How the results depend on the processing

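The settings tried were 2 other filters on low counts, other scalings, DESeq2, a fit of only the cultures compared, a replicate block, length and GC corrections, and each culture left out in turn. Of 1640 alternative values of single genes, 1498 kept their direction and side of the limit, 51 passed it newly, 52 no longer passed it, 36 turned and 3 values without a test moved. The cause was not tested. The count of ribosomal protein genes higher in *KD1* became 1 with coding length and GC corrected, and the median became -0.21. The count higher in *KD2* became 1 with at least 10 counts in every culture or with library size alone, and 3 with coding length and GC corrected. For *KD2* against *KD1*, library size alone gave 21 higher and 10 lower with a median of 0.0839, where the median of all genes was 0.1412. The lower count was 28 with 1 count in any culture, 35 with exon length and GC corrected, and 40 with coding length and GC corrected.

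Deviations of same-numbered cultures had a mean correlation of 0.0083 (from -0.0747 to 0.1102), beside -0.0054 for differently numbered ones. The labels do not say what the number stands for, and whether same-numbered cultures were handled together was not tested. The replicate block gave 67 lower in *KD1*, 61 lower in *KD2*, and 9 higher and 21 lower for *KD2* against *KD1*. With length and GC corrected as well, the last became 38. *Rps28* in *KD2* was -0.0078 under the block, and with both it was -0.0899, *Rpl12* -0.0097, *Rps10* -0.0599, and in *KD1* *Rpl6* -0.0001 and *Rpl7l1* -0.0024. Shares of all genes are not given for the block, the other filters or most fits with a culture left out. Counts from those fits do not tell a change in the ribosomal protein genes from a change in all genes.

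Leaving out single cultures gave 34 to 75 genes lower in *KD1* and 0 to 1 higher in *KD2*. For *KD2* against *KD1* it gave 5 to 15 higher, 12 to 47 lower and a median of -0.18 to 0.0449, which was 0.0139 without *KD2* replicate 1. In *KD1* the ranges were -0.0378 to 0.005 for *Rpl27*, -0.0033 to 0.0664 for *Rpl6* and -0.0006 to 0.0739 for *Rpl7l1*. In *KD2* they were -0.0737 to 0.11 for *Rpl12*, -0.15 to 0.0525 for *Rpl35*, -0.0351 to 0.24 for *Rpl37a*, -0.28 to 0.0294 for *Rplp1*, -0.14 to 0.21 for *Rps10*, -0.21 to 0.13 for *Rps28* and -0.051 to 0.21 for *Rps29*.

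Other values near zero turned. In *KD1*, coding length and GC gave 0.0144 for *Rpl26*, 0.0876 for *Rpl27*, -0.0073 for *Rpl7l1* and 0.031 for *Rps10*. Exon length and GC gave -0.0007 for *Rpl6* and -0.0027 for *Rpl7l1*. Library size alone gave -0.0011 and -0.0047 for that pair, and the 6 cultures alone 0.0133 for *Rpl27*. In *KD2*, 1 count in any culture gave -0.0015 for *Rpl12* and -0.0245 for *Rps28*, and 10 counts in every culture 0.0153 for *Rpl35*. Exon length and GC gave -0.0089 for *Rpl12*, -0.0578 for *Rps10* and -0.083 for *Rps28*. Library size alone gave 0.0762 for *Rpl35* and 0.0136 for *Rplp1*, where the median of all genes moved up by 0.1095. The lowest count of any of the 82 genes in a culture was 131, and each guide is represented by 1 line of 3 cultures.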
